A study of Homo sapiens with 8 samples.

Results

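The genes described here encode the subunits of AP-1, a transcription factor that binds DNA as a dimer of leucine zipper proteins. The members were fixed by name as FOS, FOSB, FOSL1, FOSL2, JUN, JUNB, JUND, ATF3, BATF and BATF3, which are 10 of the 20007 protein-coding genes of GENCODE release 44. For each gene, all H3K27ac peaks in the gene body and 50 kb either side were taken from each library, which gave 177 of 53053 peaks. Peaks of different libraries were joined into regions wherever they overlapped by 1 bp or more, and 59 of 15752 regions lay in these loci.

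H3K27ac is a histone mark, an acetyl group on lysine 27 of H3 that is found at promoters and enhancers in use. It was measured by ChIP-seq, in which chromatin bound by an antibody is sequenced. The cells were pancreatic progenitors (PPs) made from the human embryonic stem cell line MEL1, an established line that here carried a GFP reporter in its insulin locus. All PPs were kept in EF6, which is DMEM with B27, EGF, bFGF and 616452, an inhibitor of the TGFβ receptor. PPs of 1 group received the solvent DMSO, and PPs of the other group received 1 μM I-BET151 for 7 days. This drug keeps BET proteins off acetylated histones by blocking their bromodomains. Each group had 2 H3K27ac libraries, and the 4 input libraries came with no list of their own. The labels do not say whether the 2 libraries of a group came from separate differentiations. The p-values therefore rest only on the spread between these libraries, which may be technical. In the test of summit height at regions called in all 4 libraries, that spread was pooled over regions.

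FOS and JUN proteins pair through their leucine zippers, and JUN proteins can also pair with ATF and BATF proteins. The dimers bind the AP-1 site TGANTCA or the related CRE site TGACGTCA in promoters and enhancers. Several of the genes are immediate early genes, which growth factors switch on through MAP kinases and the serum response factor SRF, and EGF and bFGF are such growth factors.

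The lists held 12312 to 14248 peaks covering 8.62 to 9.91 Mb, and both I-BET151 lists were shorter than both DMSO lists. The ChIP depth left once duplicates had been removed was 7.96 and 9.84 M reads in DMSO and 7.76 and 8.04 M reads in I-BET151. These depths were derived from the lists, and M is the SI prefix mega. The Jaccard index of covered bases was 0.831 within DMSO, 0.821 within I-BET151 and 0.725 to 0.734 between the groups. All 10 markers of PPs, among them PDX1, NKX6-1 and SOX9, had a peak at the promoter in all 4 libraries. None of 5 endocrine markers had one in any library. PECAM1 was the only endothelial marker of 3 with a peak, with its promoter called in DMSO only, in both libraries. The summed covered length at the promoters of the PP markers was 29886 to 30202 bp under DMSO and 31197 to 33344 bp under I-BET151. It was higher under I-BET151 also for the blood markers, of which only CD68 had a peak, at 406 and 507 bp against 672 and 750 bp. It was lower for the hepatic markers (only APOA1), at 999 and 1004 bp against 625 and 921 bp, and for the pluripotent markers (only LIN28A), at 1259 and 1316 bp against 785 and 1230 bp. The fibroblast markers (PDGFRB and VIM) and the intestinal markers (CDX2 and VIL1) overlapped between the groups, at 2786 to 3207 bp and 3018 to 3811 bp. Their part in the results was not tested.

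H3K27ac peaks covered less of most AP-1 loci after I-BET151 treatment. The covered length was lower in both I-BET151 libraries than in both DMSO libraries at 8 of the 10 loci and higher at 0. In bp the difference was largest at JUNB, then at JUND and FOSL1, and in percent it was largest at BATF and BATF3, then at JUNB and ATF3, while the libraries of the 2 groups overlapped at FOS and BATF3. Across the 15184 protein-coding genes with a peak in such a window, 44.4% were lower and 12.5% were higher in the same sense. The median difference over the 10 loci was −878 bp, against −94 bp over all those genes. The median change was −29.2% at the AP-1 loci and −7.54% over all. With 2 libraries against 2, the two-sided exact permutation test cannot give a p below 0.33, so no single locus could pass a threshold of 0.05.

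**Figure D1:**
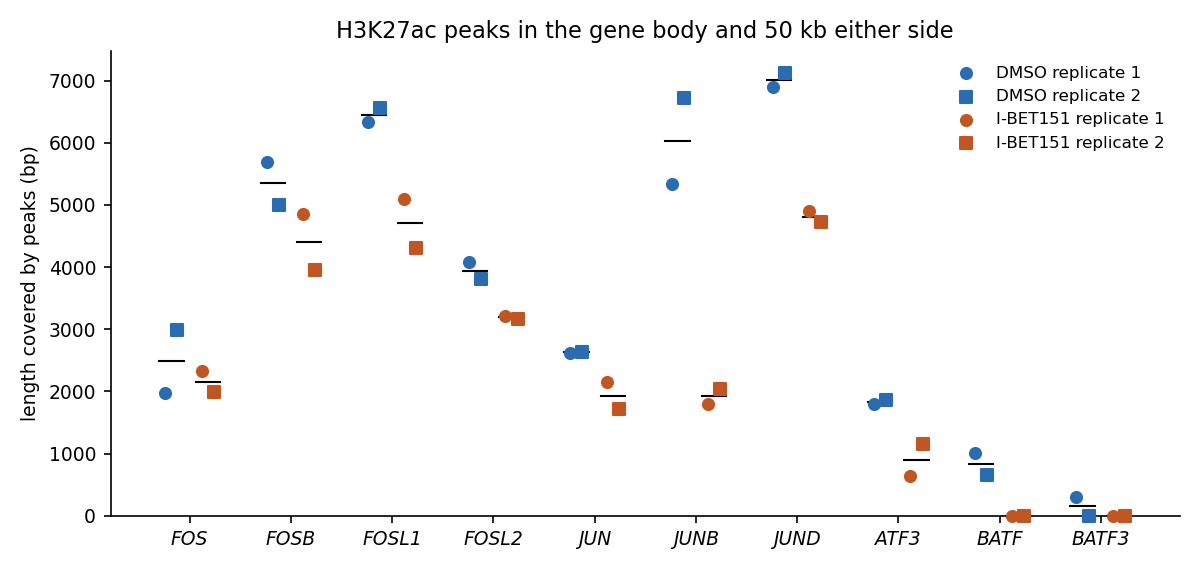
Length covered by H3K27ac peaks (bp, vertical axis) in the gene body and 50 kb either side of each of the 10 AP-1 genes (horizontal axis). Each point is 1 library, with circles for replicate 1 and squares for replicate 2, and the horizontal lines are group means. Both I-BET151 libraries lie below both DMSO libraries at 8 loci, and at JUNB they lie at 1793 and 2043 bp, below 5333 and 6713 bp.

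Of the 59 regions in the AP-1 loci, 31 were called in all 4 libraries, which is 52.5%, against 65.5% of all regions. A region was termed lost where both DMSO libraries and neither I-BET151 library had a peak, and gained in the opposite case. In the AP-1 loci 12 regions were lost, or 20.3%, against 8.60% of all regions. None was gained, against 2.81% of all regions. The remaining 16 regions were called in other combinations of libraries. Without DMSO replicate 1, a single DMSO call was enough, and 19 regions then counted as lost. Windows of 50 kb also hold neighbouring genes. For 27 of the 59 regions the nearest start of a protein-coding gene was that of an AP-1 gene, and 14 of these were called in all 4 libraries, 8 were lost and 0 were gained.

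JUNB, a JUN protein that can restrain JUN, lies on chromosome 19 (hg38 chr19:12791486-12793315, plus strand). Its window was covered over 5333 and 6713 bp in the DMSO libraries and over 1793 and 2043 bp in the I-BET151 libraries. The means were 6023 ± 976 bp and 1918 ± 177 bp (SD, n = 2 each). The difference of −4105 bp, or −68.2%, exceeded the spread between the 2 libraries of each group. Only 0.27% of all genes with a peak had a lower difference. The exact permutation p was 0.33, the smallest possible.

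The loss at JUNB lay over the gene and just upstream of it. Positions are given as the distance of the strongest summit from the start of the gene, negative upstream. The region at 0.258 kb (chr19:12791482-12793238), with its summit in an untranslated exon of JUNB, covered nearly the whole gene. Its summit held 202 and 221 ChIP reads in the DMSO libraries. Read numbers at summits are also given in RPM, the reads per 1000000 ChIP reads of the library. The region was called in neither I-BET151 library. The region at −1.62 kb (chr19:12789453-12790437) held 261 and 321 reads in DMSO, or 32.8 and 32.6 RPM, and was the highest of the locus near the gene. The region at −2.74 kb (chr19:12788589-12788958) held 139 and 172 reads in DMSO. Both upstream regions lay in an intron of HOOK2, the neighbouring gene, and both were called in neither I-BET151 library.

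A region missing from a list is not a region without acetylation. The input at the −1.62 kb region was assumed to stand at its mean relative level in the DMSO libraries. A call would then have needed 95 and 103 reads in the I-BET151 libraries. That is 37.5% and 39.3% of the lower DMSO value in RPM. At the start of JUNB the same limit was 48.8% and 48.7%, and at −2.74 kb it was 36.2% and 39.2%. The DMSO inputs differed, at 84.9 and 51.3 times their genome-wide level at −1.62 kb and at 75.1 and 37.8 times at the start. A higher input than the mean would raise these limits. Under the assumption of the mean level, acetylation at these summits was lower than these shares of the DMSO level. How much lower was not detectable at this depth.

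The sequences of the JUNB promoter and of both lost upstream regions are shown because this locus lost most of its covered length. The promoter is the 250 bases before the RefSeq start (GRCh38.p14, chr19:12791236-12791485, plus strand). The upstream regions are shown as 201 bases centred on the strongest summit (hg38 plus strand, chr19:12788644-12788844 and chr19:12789767-12789967). Capitals mark matches to the searched motifs.
JUNB promoter: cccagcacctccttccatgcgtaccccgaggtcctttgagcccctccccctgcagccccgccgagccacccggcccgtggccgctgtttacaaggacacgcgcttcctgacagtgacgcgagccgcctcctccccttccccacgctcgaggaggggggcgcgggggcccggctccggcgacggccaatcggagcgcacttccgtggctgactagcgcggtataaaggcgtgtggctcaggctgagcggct
JUNB −2.74 kb: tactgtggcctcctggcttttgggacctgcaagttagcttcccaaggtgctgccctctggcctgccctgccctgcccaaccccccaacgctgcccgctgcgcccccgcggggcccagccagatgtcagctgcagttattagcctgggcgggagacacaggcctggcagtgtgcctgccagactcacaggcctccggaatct
JUNB −1.62 kb: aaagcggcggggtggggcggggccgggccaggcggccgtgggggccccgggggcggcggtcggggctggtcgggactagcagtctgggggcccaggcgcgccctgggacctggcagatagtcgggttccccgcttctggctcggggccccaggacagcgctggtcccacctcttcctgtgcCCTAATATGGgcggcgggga
The motifs searched on both strands were the AP-1 site TGANTCA, the CRE TGACGTCA, the variant TGACATCA with its reverse complement, and the CArG box bound by SRF. The capitals in the −1.62 kb region are a CArG box. Such a box was found within 100 bases of the strongest summit in 0.235% of all regions and in 0.443% of all lost regions. The other 2 sequences held none of these motifs.

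Downstream of JUNB the same window kept its peaks. The promoter of PRDX2, a peroxiredoxin, held 271 and 277 reads in DMSO and 245 and 248 in I-BET151. Its log2 ratio of RPM was 0.012 (limma, adjusted p = 0.96). A region at the start of RNASEH2A was called in DMSO replicate 2 and in both I-BET151 libraries, with 128 to 132 reads. At the start of HOOK2 on the other side, a region at −13.2 kb (chr19:12778100-12778576) was lost. A region at −16.1 kb was called in 3 libraries, with 254 and 308 reads in DMSO and 139 in I-BET151 replicate 2. The remaining JUNB region, at −8.38 kb in an intron of HOOK2 (chr19:12782630-12783297), was called only in DMSO replicate 2, with 136 reads. Its summit window is shown because it held more AP-1 sites than any other region of the loci (chr19:12783010-12783210, hg38, plus strand). It was chosen after its sequence was seen.
JUNB −8.38 kb: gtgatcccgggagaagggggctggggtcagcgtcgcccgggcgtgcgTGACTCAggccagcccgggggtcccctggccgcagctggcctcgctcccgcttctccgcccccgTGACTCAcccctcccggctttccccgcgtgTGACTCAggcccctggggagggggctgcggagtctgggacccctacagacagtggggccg
The capitals mark 3 AP-1 sites. An AP-1 site was found in the summit windows of 6 of the 59 regions of the AP-1 loci, or 10.2%, against 2.29% of all regions and 3.91% of all lost regions. None of the 12 lost regions of the AP-1 loci held one.

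JUND, the JUN protein that is expressed in most resting cells, lies on the same chromosome (chr19:18279694-18281622, minus strand). Its window was covered over 6893 and 7124 bp under DMSO and over 4903 and 4717 bp under I-BET151. The difference was −2198.5 bp, or −31.4%, and 2.26% of all genes had a lower one. The length within 3 kb of the gene's own starts did not follow. It was 2314 and 2319 bp under DMSO and 2386 and 2303 bp under I-BET151, so the groups overlapped there.

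Both lost regions of the JUND window lay upstream, inside LSM4, which encodes a protein that binds U6 RNA. Regions at −28.5 kb (chr19:18310014-18310380) and −29.6 kb (chr19:18310943-18311515), both in introns, were called in DMSO only. Downstream, 2 regions near the start of IQCN, at 6.61 and 7.28 kb, were called in DMSO replicate 2 alone, with 92 and 62 reads. In the I-BET151 libraries a call at the lost region at −29.6 kb would have needed 32.9% and 35.6% of the lower DMSO value in RPM. At the lost region at −28.5 kb it would have needed 76.1% and 78.3%, so a modest fall would have been enough to lose that region. The region at −36.8 kb, also in an intron of LSM4, was kept but held 146 and 155 reads in DMSO and 73 and 55 in I-BET151. The promoter of LSM4 itself held 289 and 308 reads in DMSO and 233 and 256 in I-BET151, and its RPM overlapped between the groups.

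The 2 regions next to the start of JUND moved in opposite directions. The region at 0.869 kb, over the coding exon (chr19:18279962-18281530), held 41.1 and 38.2 RPM in DMSO and 28.6 and 30.4 in I-BET151. Its summits lay 871 and 869 bp from the start in DMSO but 375 and 1394 bp from it in I-BET151, so different places were compared. The region at −0.515 kb (chr19:18281788-18282692) held 28.8 and 27.3 RPM in DMSO and 36.2 and 34.2 in I-BET151. Both pairs of libraries were apart. The JUND promoter is shown because its upstream region was the only shared region of the AP-1 loci that rose in RPM (limma, adjusted p under 0.05), a call made in 1 of 4 fits that left out a library and not made with a replicate block (adjusted p = 0.23) (GRCh38.p14, chr19:18281623-18281872, printed on the minus strand).
JUND promoter: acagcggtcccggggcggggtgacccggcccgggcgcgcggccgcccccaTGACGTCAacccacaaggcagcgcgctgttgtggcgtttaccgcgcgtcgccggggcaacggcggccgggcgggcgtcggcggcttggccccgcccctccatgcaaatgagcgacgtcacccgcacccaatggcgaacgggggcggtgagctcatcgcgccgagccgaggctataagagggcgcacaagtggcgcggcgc
The capitals mark a CRE that begins at −200 from the RefSeq start. The summit window of the region that rose (chr19:18282037-18282237) lay outside the printed bases and held none of the searched motifs. A CRE was found in 1.65% of 35116 RefSeq promoters of the same 250 bases.

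JUN, the founding member of AP-1, lies on chromosome 1 (chr1:58776845-58784048, minus strand), with no other protein-coding gene in its window. The window was covered over 2618 and 2637 bp under DMSO and over 2153 and 1713 bp under I-BET151, a difference of −694.5 bp or −26.4%. Of all genes, 14.7% had a lower difference. Of its 4 regions 3 were kept. The region at −0.479 kb (chr1:58784250-58785227) held 322 and 360 reads in DMSO and 223 and 244 in I-BET151. In RPM these were 40.4 and 36.6 against 28.7 and 30.4. The region at 0.276 kb, in the untranslated exon, held 26.6 and 24.7 RPM in DMSO and 21.9 and 23.8 in I-BET151, also apart but closer. The region at −31.4 kb (chr1:58815281-58815677), in an exon of the noncoding RNA LINC01135, was lost. It had held 99 and 129 reads in DMSO, and a call would have needed 40.4% and 43.0% of the lower DMSO value in RPM. Its neighbour at −32.4 kb was kept with 152 and 185 reads in DMSO and 157 and 139 in I-BET151, and the libraries of the groups overlapped in RPM.

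The promoter of JUN (GRCh38.p14, chr1:58784048-58784297) and the lost region (hg38, chr1:58815364-58815564) are shown on the minus strand. The JUN promoter is known for a site through which JUN and its partners act on their own gene.
JUN promoter: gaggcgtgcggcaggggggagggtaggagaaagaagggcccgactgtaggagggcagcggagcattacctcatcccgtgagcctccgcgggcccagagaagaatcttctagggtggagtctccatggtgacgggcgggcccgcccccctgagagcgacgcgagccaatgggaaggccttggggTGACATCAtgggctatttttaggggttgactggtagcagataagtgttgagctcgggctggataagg
JUN −31.4 kb: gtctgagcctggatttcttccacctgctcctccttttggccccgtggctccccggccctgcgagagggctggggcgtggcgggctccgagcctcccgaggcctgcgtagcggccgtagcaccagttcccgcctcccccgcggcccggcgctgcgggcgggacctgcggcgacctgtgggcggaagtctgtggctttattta
The capitals in the promoter mark the variant TGACATCA, which begins at −67 and was found on either strand in 2.37% of RefSeq promoters. The upstream of the 2 RefSeq promoters of ATF3 also held it, at −123. The lost region held none of the motifs. Of the 10 members, 8 had an entry among the RefSeq promoters and FOSL1 and BATF3 did not.

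FOS, the classic immediate early gene, lies on chromosome 14 (chr14:75278826-75282230, plus strand), also with no protein-coding neighbour in its window. Its covered length was 1981 and 2993 bp under DMSO and 2327 and 1982 bp under I-BET151. The groups overlapped, and the exact permutation p was 1. The difference of −332.5 bp became 134 bp with windows of 10 kb and 173.5 bp without DMSO replicate 2. Of its 5 regions 4 were called in all libraries, at −19.9, −1.35, −0.136 and 15.6 kb. The promoter region at −0.136 kb (chr14:75278295-75279268) held 345 and 359 reads in DMSO and 344 and 352 in I-BET151. The exact Poisson intervals of those reads, which cover counting error only, were 309.6 to 383.4 and 322.8 to 398.1 in DMSO and 308.6 to 382.3 and 316.2 to 390.8 in I-BET151. In RPM the values were 43.3 and 36.5 in DMSO and 44.3 and 43.8 in I-BET151. Only DMSO replicate 2, the deepest library, stood below the others. The lost region at 16.4 kb (chr14:75295140-75295457), in an intron of LINC01220, was a weak one with 82 and 81 reads in DMSO.

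FOSL1, which encodes the FOS protein FRA1, lies on chromosome 11 (chr11:65892049-65900573, minus strand) among 10 other protein-coding genes. Its window was covered over 6338 and 6553 bp under DMSO and over 5102 and 4301 bp under I-BET151, a difference of −1744 bp or −27.1%. Of all genes, 3.74% had a lower difference. Part of the change lay at the gene itself, where the covered length differed by −754.5 bp. A region in an intron of FOSL1 at 1.26 kb (chr11:65899068-65900286) held 213 and 247 reads in DMSO and 107 in I-BET151 replicate 1, and it was not called in I-BET151 replicate 2. In RPM these were 26.8 and 25.1 against 13.8. A call in I-BET151 replicate 2 would have needed 73 reads, or 9.08 RPM. It was the only region of the window with FOSL1 as its nearest gene. Its summit window is shown because it held an AP-1 site (hg38 chr11:65899209-65899409, minus strand).
FOSL1 1.26 kb: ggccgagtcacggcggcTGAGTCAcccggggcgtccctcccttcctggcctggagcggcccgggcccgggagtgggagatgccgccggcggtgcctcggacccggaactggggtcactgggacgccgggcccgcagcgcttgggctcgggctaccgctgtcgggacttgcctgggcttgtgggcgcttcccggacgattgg
The capitals mark that site. The other regions of the window lay near 6 other genes. The promoter of EFEMP2, a protein of elastic fibres, held 181 and 216 reads in DMSO and 103 and 112 in I-BET151. The promoter of C11orf68 held 353 and 390 reads in DMSO and 323 and 346 in I-BET151, which overlapped in RPM.

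FOSL2, which encodes FRA2, lies on chromosome 2 (chr2:28392448-28417317, plus strand). Its window was covered over 4076 and 3811 bp under DMSO and over 3207 and 3171 bp under I-BET151, a difference of −754.5 bp or −19.1%. The wide promoter region at 0.013 kb (chr2:28391903-28394032) was called in all libraries. It held 44.5 and 38.2 RPM in DMSO and 37.1 and 40.2 in I-BET151, and the groups overlapped. A region at −1.75 kb held 212 and 237 reads in DMSO and 190 and 193 in I-BET151, also overlapping in RPM. The lost region at 2.01 kb (chr2:28394285-28394624), in an intron of FOSL2, had held 101 and 133 reads in DMSO. A call there would have needed 39.6% and 39.2% of the lower DMSO value in RPM.

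FOSB, another FOS protein of the immediate early class, lies on chromosome 19 (chr19:45467995-45475179, plus strand) beside ERCC1, PPM1N, RTN2 and VASP. Its window was covered over 5691 and 5005 bp under DMSO and over 4852 and 3954 bp under I-BET151, a difference of −945 bp or −17.7%. It was −602 bp without DMSO replicate 1 and −496 bp without I-BET151 replicate 2. Only 1 of its 12 regions had FOSB as its nearest gene. That region, at 1.06 kb in an intron of FOSB (chr19:45468886-45469265), was lost. It had held 111 and 124 reads in DMSO, and a call would have needed 65.5% and 69.1% of the lower DMSO value in RPM. Of 3 regions in introns of VASP, a regulator of actin filaments, those at 40.5 and 41.5 kb were kept in all libraries, and that at 46.7 kb was called in I-BET151 replicate 1 alone. At 41.5 kb the summit held 138 and 152 reads in DMSO and 85 and 86 in I-BET151.

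ATF3, a stress-induced member of the ATF family, lies on chromosome 1 (chr1:212565334-212620777, plus strand). Its window was covered over 1792 and 1858 bp under DMSO and over 642 and 1160 bp under I-BET151, a difference of −924 bp or −50.6%. The gene has 5 annotated starts. The peaks lay at a downstream start rather than at the start of the gene. The region at 43.6 kb (chr1:212608805-212609717) had its summit 21 bp from that start. It held 148 and 167 reads in DMSO and 114 in I-BET151 replicate 2, and was not called in I-BET151 replicate 1, where a call would have needed 67 reads. The region beside it at 42.7 kb (chr1:212607883-212608411), 721 bp from the same start, was lost after 92 and 113 reads in DMSO. The region at −6.54 kb was called in all 4 libraries with 168 and 183 reads in DMSO and 144 and 153 in I-BET151.

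BATF and BATF3, which are known for their roles in lymphocytes and dendritic cells, had no peak within 3 kb of their own starts in any library. The window of BATF (chr14:75522455-75546993, plus strand) held 1 region, at the start of the neighbouring transporter gene FLVCR2 (chr14:75578560-75579574). It was lost after 118 and 151 reads in DMSO, and covered 1015 and 649 bp there. The window of BATF3 (chr1:212686417-212699840, minus strand) overlapped that of ATF3. Both windows shared its 1 region of 305 bp, called only in DMSO replicate 1. No value of these 2 loci comes from the promoters of BATF or BATF3.

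**Figure D2:**
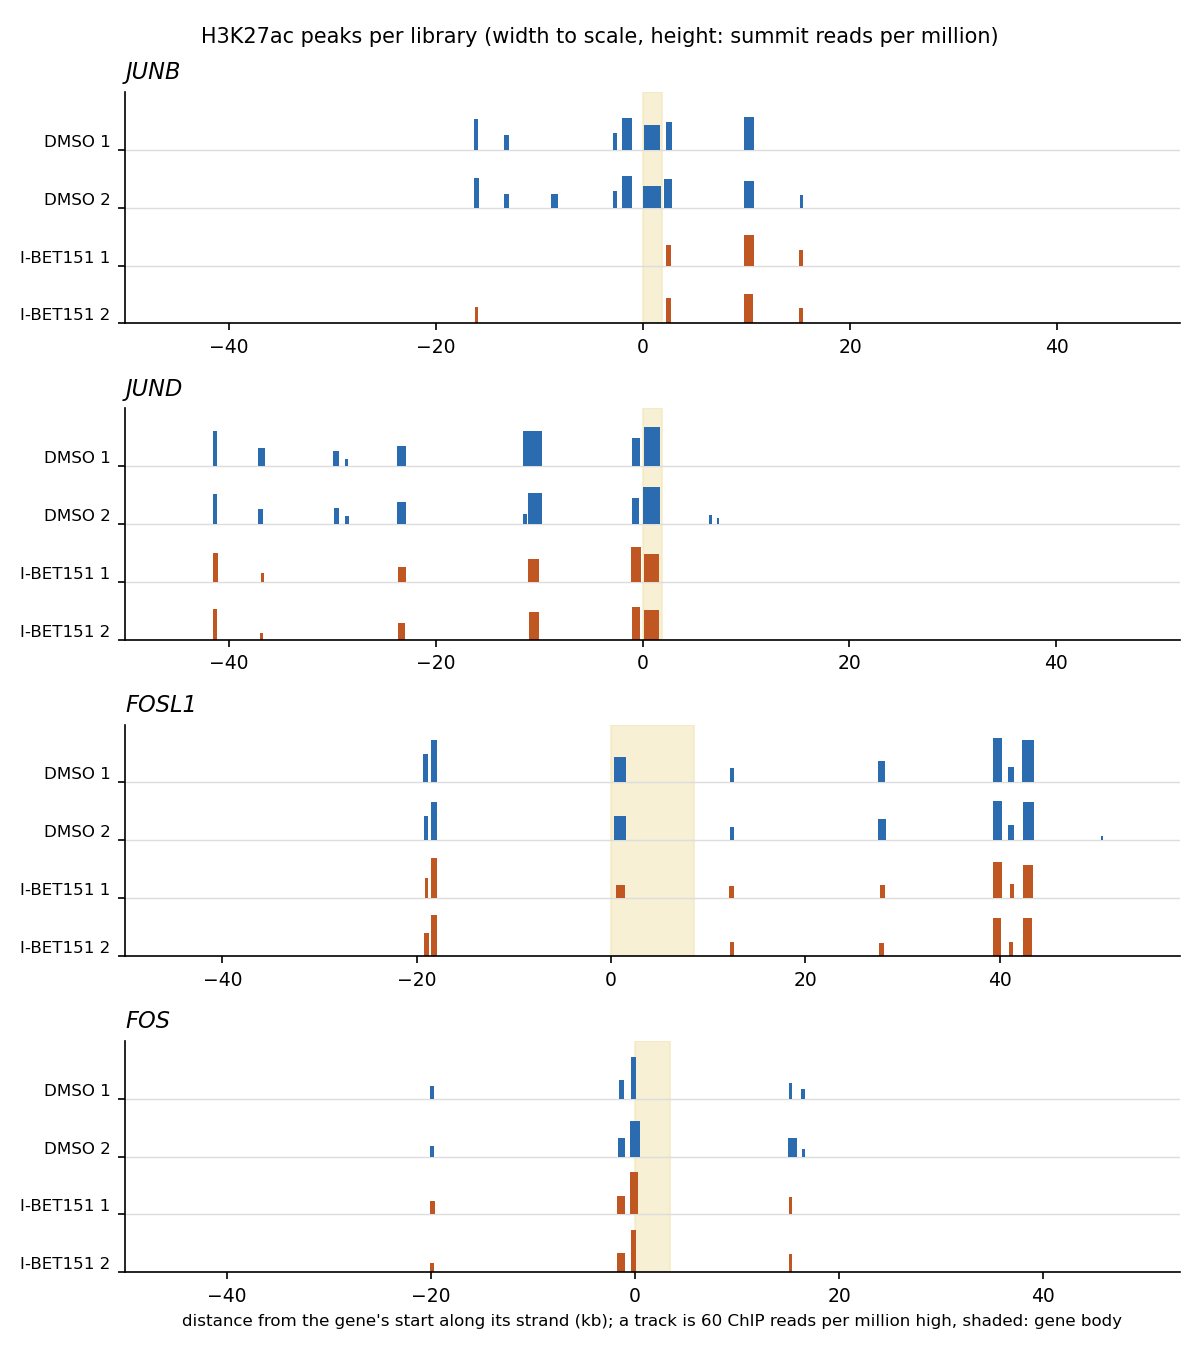
H3K27ac peaks of each library around JUNB, JUND, FOSL1 and FOS, against the distance from the gene's start along its strand (kb). Bar width is the peak's width to scale, bar height is the summit in RPM, each track is a library and the shaded band is the gene body. Around JUNB the bars at −2.74, −1.62 and 0.258 kb are present in both DMSO libraries and absent from both I-BET151 libraries, while the promoter bar of FOS is present in all 4.

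The same comparison was made within 3 kb of each gene's own starts, which leaves out most neighbours. Of the 8 members with a peak there, 6 were covered less in both I-BET151 libraries and 0 were covered more. Among 11192 genes with such a peak, 36.7% were covered less and 14.1% more. JUNB was covered over 3511 and 3859 bp under DMSO and over 456 and 516 bp under I-BET151, and 0.0357% of genes had a lower difference than its −3199 bp. FOSL1 was covered over 1219 and 1204 bp under DMSO and over 914 and 0 bp under I-BET151. ATF3 was covered over 1025 and 1261 bp under DMSO and over 0 and 481 bp under I-BET151. FOSB went from 297 and 286 bp to 0 bp in both libraries. JUN went from 1773 and 1757 bp to 1638 and 1193 bp, and FOSL2 from 3701 and 3564 bp to 3207 and 3171 bp. FOS and JUND overlapped between the groups. Without I-BET151 replicate 2 the difference at FOSL1 went from −754.5 to −297.5 bp and that at JUN from −349.5 to −127 bp, and without I-BET151 replicate 1 they were −1211.5 and −572 bp. With windows of 3 kb the exact permutation p was 0.33 for each of the 6 and 1 for FOS and JUND.

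The height of the highest summit near the start could be compared at the 5 members that had one in all 4 libraries. RPM were lower in both I-BET151 libraries at JUN, JUNB and JUND, higher at FOS and overlapping at FOSL2. Among 9299 genes with such a summit, 31.4% were lower and 26.5% were higher, so 3 and 1 of 5 do not set these genes apart. The ratio of the group means, I-BET151 over DMSO, was 0.726 at JUNB, 0.768 at JUN, 0.889 at JUND, 0.937 at FOSL2 and 1.11 at FOS. At JUNB and JUND the comparison was between different places. The JUNB values in DMSO were those of the lost −1.62 kb region, and the I-BET151 values of 21.3 and 26.5 were those of the region at 2.39 kb. The JUND values in DMSO were those of the region at 0.869 kb, and those in I-BET151 came from the region at −0.515 kb.

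The deposited fold at the summit, which is relative to the local input, gave another order. The fold was lower in both I-BET151 libraries at JUN and JUNB, higher at JUND, and overlapping at FOS and FOSL2. Among 9330 genes, 16.0% were lower and 24.5% were higher. At JUN it was 8.86 and 8.05 in DMSO and 7.36 and 6.30 in I-BET151, but the 8.05 of DMSO replicate 2 came from the region at 0.276 kb and the other 3 values from that at −0.479 kb. At −0.479 kb alone the fold in DMSO was 8.86 and 5.34, so the groups overlapped. At JUNB it was 5.87 and 6.54 in DMSO and 4.69 and 5.12 in I-BET151. At the 2.39 kb region alone, the JUNB fold was 4.48 and 4.33 in DMSO and 4.69 and 5.12 in I-BET151, so the direction turned. At JUND the fold was 7.37 and 8.76 in DMSO and 15.9 and 10.2 in I-BET151. These values came from the region at −0.515 kb. Its input stood at 21.0 times the genome-wide level in I-BET151 replicate 1, against 30.8 to 35.9 times in the other libraries. At FOS it was 6.32, 7.11 and 6.93 in 3 libraries and 14.1 in I-BET151 replicate 1. The input there stood at 30.2 times its genome-wide level in I-BET151 replicate 1, against 52.9 to 65.3 times in the other libraries.

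**Figure D3:**
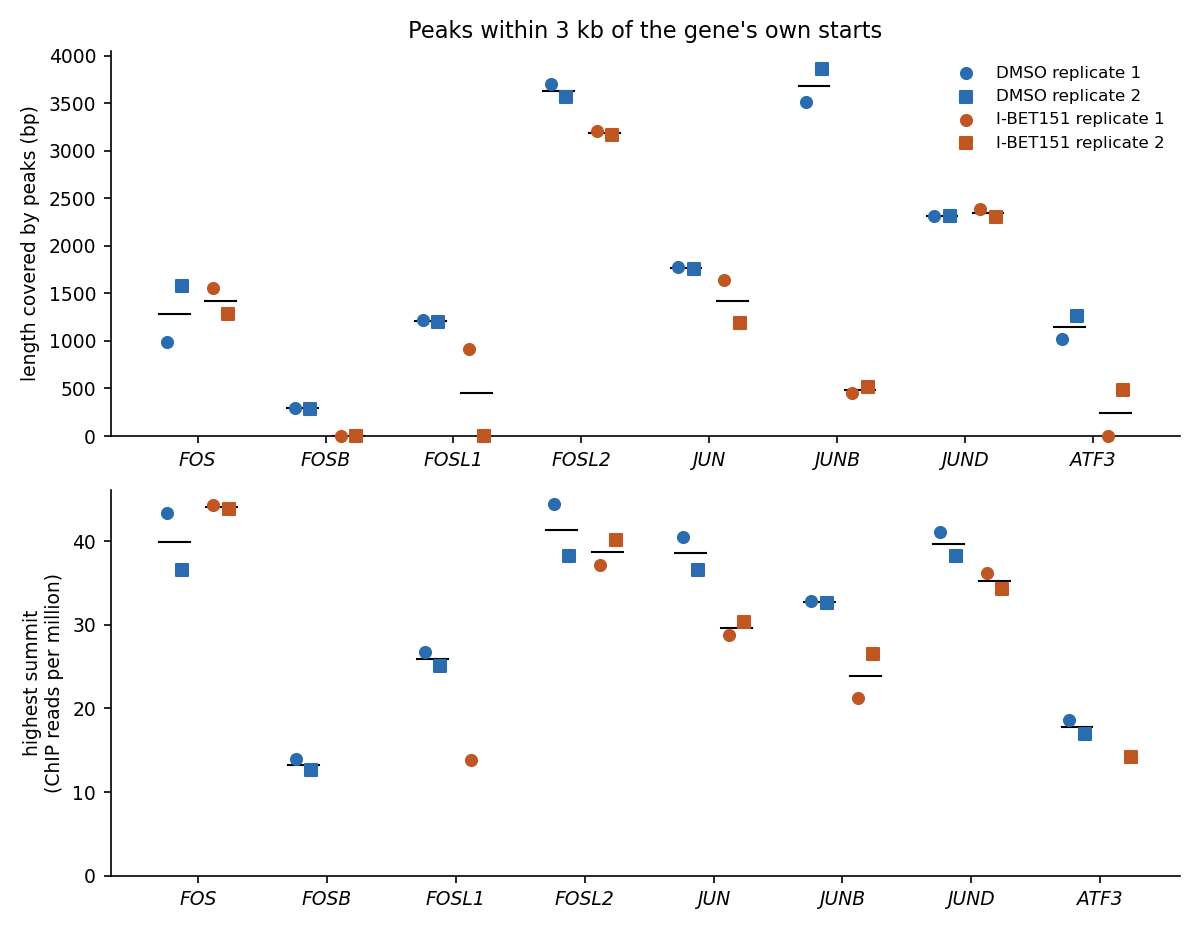
Length covered by peaks within 3 kb of the gene's own starts (bp, upper panel) and the highest summit there (RPM, lower panel) for the 8 AP-1 genes with a peak there. Each point is 1 library, lines are means of groups with both values, and a library without a peak has 0 bp and no summit. JUNB drops from 3511 and 3859 bp to 456 and 516 bp, and FOS stays at 36.5 to 44.3 RPM in all 4 libraries.

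Regions called in all 4 libraries allow a test of summit height across all of them. The log2 summit RPM were compared with limma at 10270 such regions, and p-values were adjusted by Benjamini-Hochberg over all of them. Each SE came from a trend over all those regions. The SE and p-value of a region therefore do not measure the spread of its own libraries. In the AP-1 loci 10 of 31 regions fell and 1 rose at an adjusted p under 0.05. The falls were 3 without DMSO replicate 1, 4 without I-BET151 replicate 1 and 5 with a replicate block. Over all regions 14.7% fell and 10.1% rose in the main fit, against 9.76% and 6.17% with the replicate block. For the fits without a library no share over all regions was computed. The log2 ratio was below 0 at 25 of the 31, with a median of −0.15 against 0.0005 over all regions. Scaled instead by the median of the shared regions, 12 fell and 2 rose in the AP-1 loci, while 17.9% fell and 27.1% rose over all regions. Under that scaling the median log2 ratio of all regions was 0.056. Lost regions are not in this test, since a summit height exists only where a peak was called.

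Summits within 3 kb of the genes' own starts were among those that fell. The JUNB region among them, at 2.39 kb, lay past the end of the gene. The region at the start of JUNB was lost and so was not in this test. The JUN region at −0.479 kb had a log2 ratio of −0.38 ± 0.12 (SE; adjusted p = 0.0098), and the JUNB region at 2.39 kb had −0.31 ± 0.12 (adjusted p = 0.039). The JUND region at 0.869 kb had −0.43 ± 0.12 (adjusted p = 0.0034), and the JUND region at −0.515 kb rose by 0.33 ± 0.12 (adjusted p = 0.027). The summits compared in the 0.869 kb region lay at different places, as given above. The call at JUN and the call at JUNB were made in only 1 of the 4 fits that left out a library, with adjusted p-values up to 0.26 and 0.64. The call at 0.869 kb was made in 2 of those fits (up to 0.21) and the rise at −0.515 kb in 1 (up to 0.22). The FOS promoter region had a log2 ratio of 0.15 ± 0.14 (adjusted p = 0.48), and it counted as risen under the median scaling (adjusted p = 0.021) and in 1 of the 4 fits that left out a library. The FOSL2 promoter region had −0.09 ± 0.13 (adjusted p = 0.66).

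The other 7 regions that fell lay further from the AP-1 genes. The LSM4 intron region at −36.8 kb of JUND had a log2 ratio of −1.08 ± 0.18 (adjusted p = 4.2e-08), and the EFEMP2 promoter in the FOSL1 window had −0.72 ± 0.13 (adjusted p = 2.3e-06). Both were called in all 4 fits that left out a library. The JUND region at −10.7 kb, which lay between genes, had −0.41 ± 0.12 and that at −23.5 kb had −0.39 ± 0.13. They were called in 2 and 1 of those fits. In the FOSB window the fall was −0.60 ± 0.16 at the VASP intron region at 41.5 kb, −0.49 ± 0.14 at 17.7 kb and −0.31 ± 0.12 at 40.5 kb, called in 3, 2 and 1 of those fits. With the replicate block the adjusted p was 0.088 at −10.7 kb of JUND and 0.24 at 40.5 kb of FOSB. The 3 kept FOS regions other than the promoter had ratios from −0.14 to 0.016, and none of them was called. Duplicate removal caps the height of a summit, and its part in these differences was not tested.

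**Figure D4:**
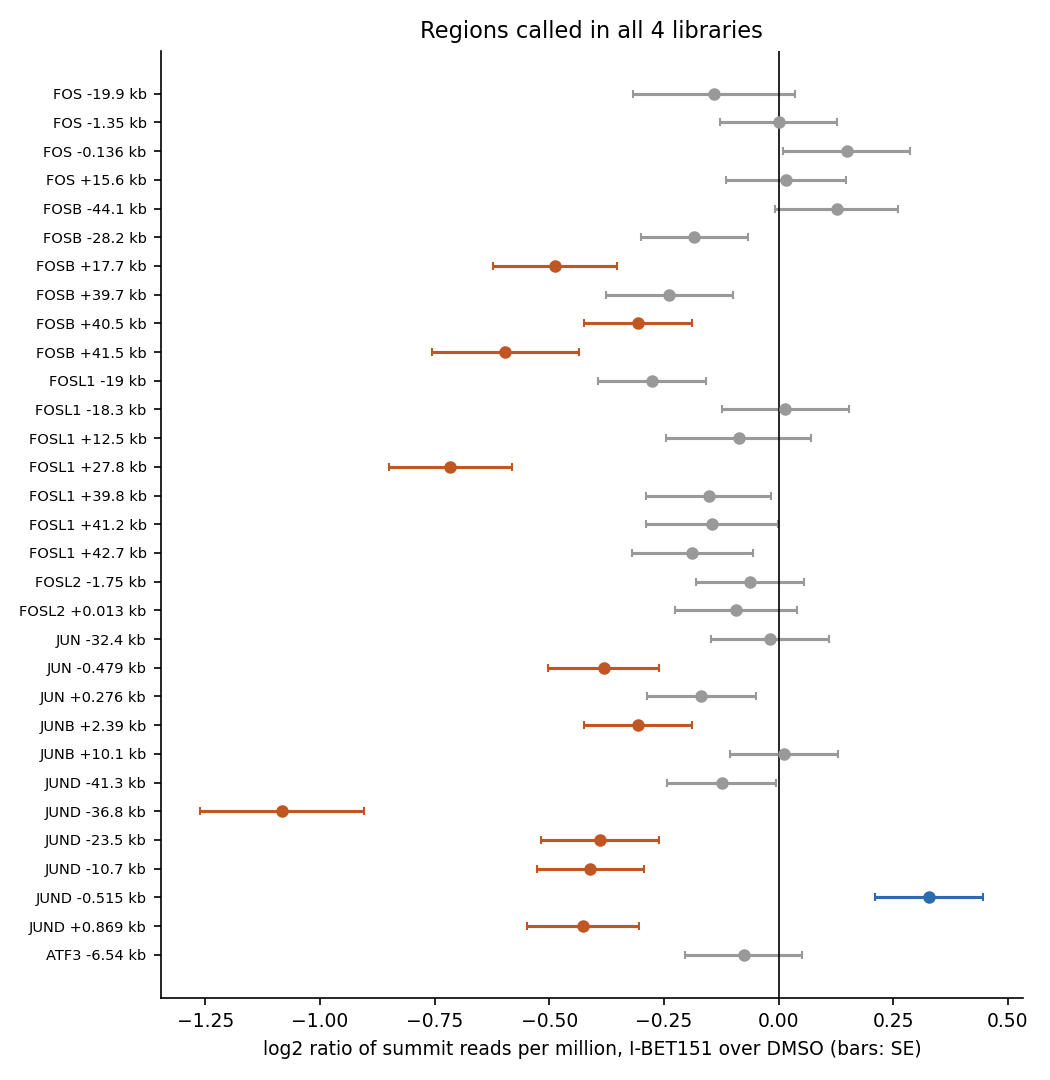
Log2 ratio of summit RPM, I-BET151 over DMSO (horizontal axis, bars are SE), for the 31 regions of the AP-1 loci called in all 4 libraries (vertical axis, named by gene and distance from its start in kb). Orange points fell and the blue point rose at an adjusted p under 0.05 (limma), and grey points did not pass. The lowest is the region at −36.8 kb of JUND, at −1.08, and the FOS regions lie near 0.

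Genes around AP-1 in the pathway were read in the same way, with windows of 50 kb and the background of 44.4% lower and 12.5% higher. Of 16 other leucine zipper genes, 13 had peaks, and 4 were lower and 1 higher, with a median of −67.5 bp. MAFK, a small MAF protein, was covered over 6005 and 7219 bp under DMSO and over 2541 and 3302 bp under I-BET151. MAFG, another small MAF protein, was covered over 9522 and 9224 bp under DMSO and over 7411 and 7669 bp under I-BET151. JDP2, a repressor that dimerises with JUN, was covered over 1714 and 1585 bp under DMSO and over 693 and 305 bp under I-BET151, and its window overlaps that of BATF.

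Of 15 kinases and factors that switch AP-1 genes on, 14 had peaks, and 10 were lower and 1 higher, with a median of −323 bp. MAP2K2, a kinase of the ERK pathway, was covered over 9411 and 9307 bp under DMSO and over 6334 and 6424 bp under I-BET151. MAPK3, which encodes ERK1, went from 4780 and 4695 bp to 3317 and 3597 bp. ELK4, a partner of SRF, went from 2058 and 2892 bp to 1597 and 1550 bp.

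Of 16 textbook targets of AP-1, 11 had peaks, and 8 were lower and 0 higher, with a median of −534.5 bp. MMP14, a membrane-bound matrix protease, went from 4750 and 4909 bp in DMSO to 3447 and 3213 bp in I-BET151. ITGB4, an integrin of epithelial cells, went from 2129 and 2789 bp to 1233 and 1283 bp. PLAU, the urokinase, went from 1852 and 2008 bp to 1033 and 545 bp. In each of these genes the libraries of the groups were apart, and with 2 against 2 the exact permutation p was 0.33.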

How the data were processed

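H3K27ac ChIP-seq was done on PPs by the authors, with 2 libraries and 2 inputs per group, 8 samples in all. Per the labels and the study's methods, the authors aligned reads to hg38 with Bowtie2 2.2.5, removed duplicates and mitochondrial reads, and called peaks with MACS2 2.1.2 against input at default settings. The deposited lists are per library and were not pooled. They hold, as the authors' caller wrote them, each peak's interval and summit, its fold (a ratio over the local background), its p-value and q-value as −log10, and a score that was not used. A fixed q threshold leaves weaker acetylation out of shallower lists, and duplicate removal caps summit height.

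Groups and replicate numbers came from the titles. Gene bodies and starts came from GENCODE release 44, and coordinates are 1-based. The deposited lists hold no counts. Whole ChIP reads at a summit were worked out from the fold, which uses a pseudocount of 1, and the Poisson p-value. The −log10 p had to match within 0.0002, or slightly more where it was large. This resolved 99.8% to 99.9% of peaks, and depth assumed a genome size of 2.7e+09 bp. On 2000 simulated peaks 99.85% were resolved, 100% of them rightly. Covered length, own-promoter length (3 kb), summit reads per 1000000 (RPM) and fold were compared by two-sided exact permutation over the 6 assignments of 4 libraries. Summit reads at shared regions were compared with limma 3.58.1 in R 4.3.3 (log2 RPM, trended prior, Benjamini-Hochberg), which was tested on simulated data and was chosen after seeing the data. Background shares are over all protein-coding genes or regions. Motifs were searched in Python 3.11.15 in 250 promoter bases or 201 summit bases.

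The members, the gene lists and the tests were chosen with earlier results of these data known. All 10 members were described. From each of the 3 pathway lists, the genes named are up to 3 with the largest difference in covered length among those whose groups did not overlap. Alternatives were other windows, thresholds, equal list lengths, leaving out each library and a replicate block.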

Additional observations from a re-analysis of the deposited data

How the results depend on the processing

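The 8 loci with lower covered length stayed between 7 and 9 under every other window, threshold and list length tried and when each library was left out, and the count of loci with higher length stayed at 0 to 1. The median difference of −878 bp became −396.5 bp with windows of 10 kb, −1358.75 bp with 100 kb and −689.5 bp with only peaks nearest to the gene's own start, and −953 to −771.25 bp without each library. Longer windows hold more bases that can change. The 12 lost regions became 6 with windows of 10 kb, 7 with peaks within 500 bp joined, and 13 to 19 without each library, the most without DMSO replicate 1, since fewer lists are then required. The gained regions were 0 to 1. With equal numbers of top-ranked peaks in each list, 8 loci were lower and 9 regions lost, while 38.3% of all genes were lower. With a −log10 q of at least 5, 8 loci were lower, while 43.9% of all genes were lower. For the other settings no share over all genes was computed, so their counts cannot be set against 44.4%. Leaving out a library makes it easier for the groups of any gene to be apart. Shares of lost regions over all regions were computed only in the main setting.

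Directions turned at few genes. The covered length at FOS went to 134 bp with windows of 10 kb and ran from −838.5 to 173.5 bp without each library. Near its starts the FOS difference of 134 bp became −99.5 bp within 1 kb and ran from −165 to 433 bp without each library. That of JUND ran from −13.5 to 69.5 bp. The fold difference at FOSL2 ran from −0.659 to 0.359 and its RPM from −5.81 to 0.441 without each library. At the widest shared promoter region the fold difference was 0.497 at JUNB and −0.670 at JUND, since another region is then compared. The cause of the other turns was not tested.

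The replicate numbers are shared between the groups, but nothing in the labels ties the same-numbered libraries together. The deviations of the pairs correlated with r = 0.11 across 15184 genes, and with 2 pairs this is a hint at most. With the replicate block, 8 loci were lower in both pairs and 0 higher, and the share over all genes was not computed for it. In limma the replicate block gave 5 regions that fell and 0 that rose, against 10 and 1. Over all regions it gave 9.76% that fell and 6.17% that rose, against 14.7% and 10.1%. With it the adjusted p was 0.17 at the JUN region at −0.479 kb, 0.20 at the JUNB region at 2.39 kb, 0.11 at the JUND region at 0.869 kb and 0.23 at that at −0.515 kb. Without each library in turn, 3 to 8 fell and 0 to 2 rose, the fewest falls being 3 without DMSO replicate 1 and 4 without I-BET151 replicate 1. No share over all regions was computed for those fits. Median scaling gave 12 and 2. With 1 library left in a group, it was assumed to vary like the other group.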
